A study of Mus musculus with 8 samples.

Results

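The inwardly rectifying potassium (Kir) channel genes of the Kcnj family were followed in spinal cord astrocytes that had lost Kir4.1. The set held 10 genes out of 39179 identifiers in the count files: Kcnj10, Kcnj16, Kcnj2, Kcnj3, Kcnj4, Kcnj6, Kcnj8, Kcnj9, Kcnj11 and Kcnj12. They were picked by name from the gene column of the authors' deposited comparison and joined to the counts by Ensembl identifier. The 8 RNA-seq libraries came from Aldh1l1-GFP+ cells sorted from the spinal cord of mixed swiss-webster mice at P12-P14, that is, postnatal days 12 to 14. The 4 control libraries (S1, S2, S6 and S7) were from animals without cre, labelled wild-type/Aldh1l1-GFP+, and the 4 cKO libraries (S3, S4, S5 and S8) from animals with Aldh1l1-cre and floxed Kir4.1 alleles, labelled Kir4.1-cKO/Aldh1l1-GFP+. All 8 carried the GFP reporter, whether the controls also carried floxed alleles is not given in the labels, and cells were sorted on GFP and not on recombination of Kcnj10. The labels call the libraries biological replicates without saying how many animals each one holds.

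Kir channels are tetramers that pass potassium more readily into the cell than out of it, and they hold the resting potential near the potassium equilibrium. In astrocytes Kir4.1, encoded by Kcnj10, carries most of the resting potassium conductance and takes up potassium released by active neurons. Kir5.1, encoded by Kcnj16, conducts poorly alone but joins Kir4.1 in mixed channels. Kir2 channels are strong rectifiers, Kir3 channels are opened by G protein beta-gamma subunits, and Kir6 subunits form the pore of ATP-sensitive channels with a sulfonylurea receptor.

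The sequences upstream of 3 members are given because these members carry the results: Kcnj10 was the targeted and most abundant gene, Kcnj16 the second most abundant, and Kcnj3 the member whose counts and FPKM gave different fold changes. Each line is the 250 bases before an annotated start on the plus strand, from RefSeq on GRCm38.p6, at chr1:172340960-172341209, chr11:110967783-110968032 and chr2:55435720-55435969 in that order. Capitals mark matches on either strand to TTGGC, the core element of nuclear factor I, or to CCAAT, which can overlap each other.
Kcnj10: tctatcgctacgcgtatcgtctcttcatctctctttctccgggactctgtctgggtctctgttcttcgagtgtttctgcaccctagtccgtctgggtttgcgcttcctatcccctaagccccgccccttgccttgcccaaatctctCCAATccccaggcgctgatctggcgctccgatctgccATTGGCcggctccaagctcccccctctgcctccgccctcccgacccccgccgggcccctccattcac
Kcnj16: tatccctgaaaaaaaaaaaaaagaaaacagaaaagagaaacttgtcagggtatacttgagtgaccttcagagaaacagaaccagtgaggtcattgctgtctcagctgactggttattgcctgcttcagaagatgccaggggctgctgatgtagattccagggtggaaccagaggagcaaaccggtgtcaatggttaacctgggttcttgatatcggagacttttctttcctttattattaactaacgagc
Kcnj3: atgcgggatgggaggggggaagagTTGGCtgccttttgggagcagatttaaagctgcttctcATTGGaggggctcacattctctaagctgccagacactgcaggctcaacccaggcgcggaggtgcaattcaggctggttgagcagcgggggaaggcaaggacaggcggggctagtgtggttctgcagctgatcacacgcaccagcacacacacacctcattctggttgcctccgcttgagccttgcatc

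The Kcnj10 stretch held 17 CpG dinucleotides, against 7 for Kcnj3 and 3 for Kcnj16, where the median of 32851 promoter windows of this length was 6. A TTGGC was present in the Kcnj10 and Kcnj3 windows and in 41.5% of all windows, and a CCAAT was present in the same 2 and in 33.8% of all windows. The printed Kcnj16 window is the first of 4 annotated starts, and these data do not say which one was in use. It held neither motif, while the window of the second start held 1 TTGGC and that of the fourth held 2 TTGGC and 1 CCAAT, and the third held neither. The whole Kcnj3 window lies inside an exon of Gm26794, a non-coding gene on the opposite strand that is described with Kcnj3 below. A RefSeq window was found for 9 of the 10 members, all but Kcnj11.

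Per-library values are given for controls in the order S1, S2, S6, S7 and for cKO in the order S3, S4, S5, S8. Gene reads ranged from 13892736 to 25065686 per library. The labelled cell type was checked first: all 12 astrocyte markers were detected, with a summed level of 17908 to 26593 CPM (counts scaled to library size) in controls and 21200 to 25779 in cKO. Oligodendrocyte markers summed to 1572 to 3207 CPM in controls and 1055 to 2557 in cKO, and 0 of 12 had a higher mean in cKO. Of the 12 astrocyte markers, 2 passed (adjusted p under 0.05) by edgeR and by DESeq2, both higher in cKO. Over all genes tested, 0.318% passed by edgeR and 2.49% by DESeq2. Aqp4, the water channel of astrocyte endfeet, was at 1588 to 2454 CPM in controls and 3373 to 5268 CPM in cKO, with an adjusted p of 0.0243 by edgeR. Aldh1l1, whose regulatory sequence drives both the cre and the reporter by the labels' names, was itself at 131 to 151 CPM in controls and 244 to 350 CPM in cKO, with an adjusted p of 0.0179 by edgeR. In bulk RNA, fewer cells of a type and less RNA per cell cannot be told apart. Control S7 and cKO S5 had the fewest genes detected in their groups, 17984 and 17312, against 18975 to 20470 in the other 6 libraries.

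By counts per kilobase of exon, Kcnj10 and Kcnj16 together made up nearly the whole Kir transcript pool of control astrocytes. By the same measure their order was reversed in cKO. Kcnj10 (ENSMUSG00000044708) lies on the plus strand at chr1:172341210-172374085 and Kcnj16 (ENSMUSG00000051497) on the plus strand at chr11:110968033-111027968, on GRCm38. Levels were compared between genes as CPM per kilobase of annotated exon. On that scale Kcnj10 was between 219 and 426 in the controls, with a mean of 337 ± 86.6 (SD, n = 4). In cKO it was at 6.28 ± 0.858 (SD, n = 4), between 5.02 and 6.96 in the 4 libraries. The highest cKO library was far below the lowest control library. Among 21226 protein-coding genes, Kcnj10 stood in place 30 from the top in controls and in place 3687 in cKO. Its log2 fold change (cKO over control, here and below) was −5.74 with a standard error of 0.25, a fall of the targeted gene in all 4 cKO libraries.

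For Kcnj16 the control libraries read 218, 195, 155 and 156 CPM, and the cKO libraries read 226, 142, 206 and 103 CPM. The groups overlapped, and cKO S8 was the lowest of all 8 libraries while cKO S3 was the highest. The log2 fold change of Kcnj16 was −0.096 with a 95% interval of −0.60 to 0.41. By edgeR, after Benjamini-Hochberg adjustment over all genes tested, the adjusted p was 0.930. That interval covers anything from a modest fall to a modest rise in Kir5.1 transcript. Its sign turned positive under library totals without composition normalization, at 0.043, without control S1, at 0.0046, and without cKO S8, at 0.083.

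The ratio of Kcnj10 to Kcnj16, per kilobase of exon, was 3.94, 8.61, 8.71 and 9.06 in the control libraries. In the cKO libraries it was 0.115, 0.139, 0.133 and 0.251. The means were 7.58 ± 2.43 and 0.159 ± 0.062 (SD, n = 4 each). On this scale Kcnj16 stood above Kcnj10 in every cKO library and in no control library. The full annotated exon length of Kcnj10 was used in both groups. Gene counts do not show which part of the floxed gene the remaining cKO reads came from. Numbers of Kir4.1 transcripts in cKO can therefore not be read from the ratio. Control S1 had the lowest ratio of the controls: its Kcnj10 was the lowest of the 4 and its Kcnj16 the highest. The 10 members summed to 385 ± 83.8 CPM per kilobase in controls against 51.5 ± 14.9 in cKO (SD, n = 4 each). Without Kcnj10 the other 9 members summed to 48.0 ± 8.38 in controls and 45.3 ± 14.6 in cKO, and these ranges overlapped. These sums rest on the counts, and the authors' FPKM gave a larger difference for Kcnj3, as described below.

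**Figure D1:**
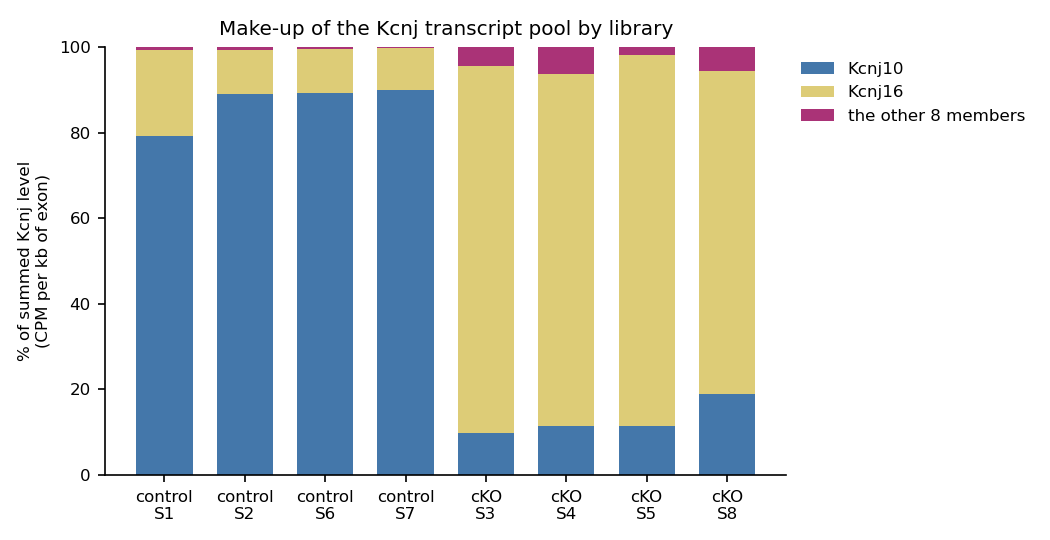
Share of the summed Kcnj level (CPM per kilobase of exon, in percent) taken by Kcnj10, Kcnj16 and the other 8 members, as 1 stacked bar per library. Kcnj10 took 79.3% to 89.9% in controls and 9.83% to 19.0% in cKO, where Kcnj16 took 75.4% to 86.5%.

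The other 8 members together held 0.193% to 0.743% of the pool in controls and 1.98% to 6.33% in cKO. The pool itself was smaller in cKO: in CPM per kilobase these 8 summed to 2.05 ± 1.16 in controls against 2.24 ± 0.841 in cKO (SD, n = 4 each), and their ranges overlapped. In the order of control levels, Kcnj10 stood clear of Kcnj16 and Kcnj16 clear of Kcnj2 in every library. Below these, Kcnj2, Kcnj3, Kcnj11, Kcnj9, Kcnj12, Kcnj8 and Kcnj6 followed from 0.988 down to 0.013 CPM per kilobase, and each neighbour in that order overlapped the next. In cKO the order began with Kcnj16 at 43.0, Kcnj10 at 6.28, Kcnj3 at 1.43 and Kcnj12 at 0.404. These shares, sums and places rest on the counts. On the authors' FPKM, another quantification described with Kcnj3 below, Kcnj3 stood above Kcnj10 in cKO. The cKO means in FPKM were 59.1 for Kcnj16, 36.9 for Kcnj3 and 5.83 for Kcnj10. The make-up of the cKO pool therefore differed between counts and FPKM.

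**Figure D2:**
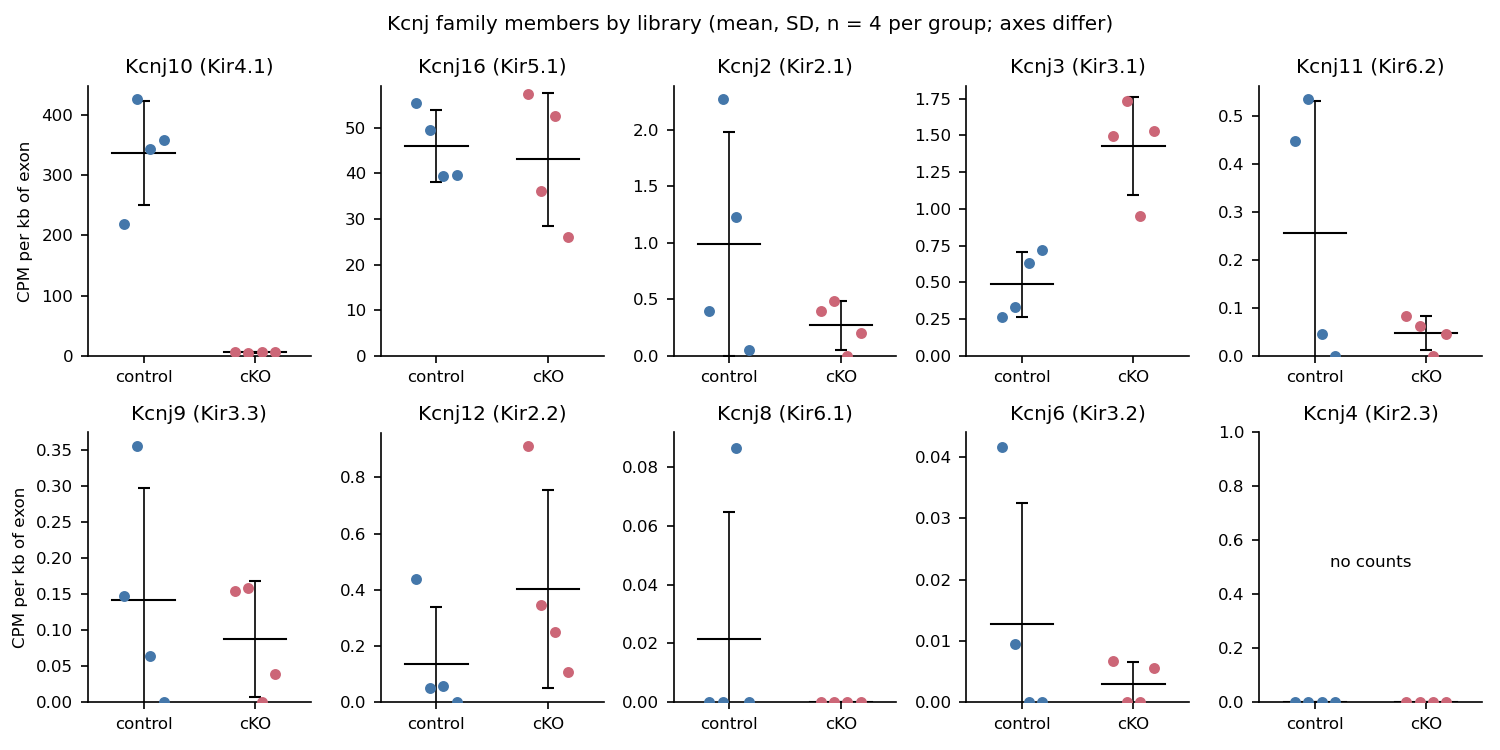
Level of each member in CPM per kilobase of exon, with 1 point per library, a line at the mean and bars of 1 SD that are drawn down to 0 at most (n = 4 per group); each panel has its own linear axis. Kcnj10 and Kcnj3 are the members whose groups do not overlap, and Kcnj4 had no counts.

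Of the 10 members, 6 had enough counts to be tested (Kcnj10, Kcnj16, Kcnj2, Kcnj3, Kcnj9 and Kcnj12), and 1 of them, Kcnj10, had an adjusted p under 0.05. The background was 0.318% of 14757 genes tested by the same edgeR test, 0.203% higher and 0.115% lower in cKO. No member was called higher by that test. Kcnj3 was the other member with an unadjusted p under 0.05. With every gene of at least 1 count kept, 9 members could be tested and again 1 was called, against 0.359% of genes. DESeq2 on the same counts called 2 members, Kcnj10 and Kcnj3, against a background of 2.49% of genes, and limma-voom called Kcnj10, against 0.325%.

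**Figure D3:**
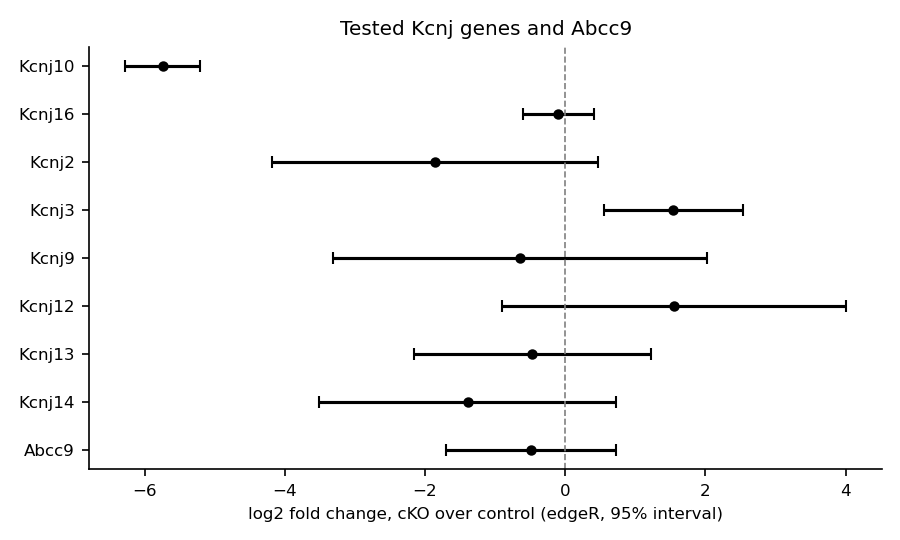
Log2 fold change of cKO over control with a 95% interval derived from the edgeR test statistic (n = 4 libraries per group). Shown are the 6 tested members, Kcnj13 and Kcnj14, and Abcc9. The intervals of Kcnj10 and Kcnj3 leave out 0 before adjustment for the number of genes tested, and only Kcnj10 passed after it.

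Kcnj3 encodes Kir3.1, a subunit of the G protein-gated channels best known from heart and neurons. Its counts were 22, 24, 60 and 79 in controls against 153, 199, 87 and 186 in cKO. As CPM, controls lay between 1.39 and 3.74 and cKO between 4.96 and 9.03, with means of 2.54 ± 1.15 and 7.44 ± 1.74 (SD, n = 4 each), a 2.92-fold difference. Every cKO library was above every control library, as in 3.39% of tested genes. Groups failed to overlap in either direction in 6.34% of genes, 2.94% with cKO lower, and among members in Kcnj10 and Kcnj3. The log2 fold change was 1.54 with a 95% interval of 0.55 to 2.53, an unadjusted p of 0.00519 and an adjusted p of 0.249 by edgeR, so the difference did not pass. Its adjusted p was 0.0199 by DESeq2, with a log2 fold change of 1.53. The authors' deposited DESeq2 table gave an adjusted p of 0.0162 and a log2 fold change of 1.16, and called 2.87% of its genes. The mean counts of Kcnj3 in that table were 46.8 in controls and 136.5 in cKO, about the same ratio as the CPM means. The smaller deposited value therefore does not stand for a smaller difference in counts.

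The authors' FPKM values, a second deposited quantification scaled to length and depth, gave a much larger difference for Kcnj3. They were 1.85, 1.41, 3.45 and 3.43 in the control columns and 41.3, 32.3, 35.5 and 38.6 in the cKO columns. The means were 2.54 ± 1.06 and 36.9 ± 3.89 (SD, n = 4 each), a 14.6-fold difference, where the counts gave 2.92-fold. On log2(FPKM + 1) the difference was 3.47 with an adjusted p of 0.00109 by limma, against a background of 0.0669% of 17930 genes called. With a pseudocount of 0.1 it was 3.90, with an adjusted p of 0.00202, against 0.0613% of genes. Of 14546 genes with a fold change on both scales, 14 had a larger gap between them than Kcnj3. For comparison, FPKM gave 0.883-fold for Kcnj16 and counts gave 0.936-fold.

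The annotation around the Kcnj3 start was looked up after the values were seen. Kcnj3 (ENSMUSG00000026824) runs from 55435970 to 55598145 on the plus strand of chromosome 2 on GRCm38. Gm26794 (ENSMUSG00000097837), annotated as a long intergenic non-coding RNA, runs from 55433514 to 55437860 on the minus strand. Its exons cover 1621 of the 1663 bases in the first and second Kcnj3 exons, which is 31.1% of all 5215 exon bases of Kcnj3. Each count file has a line for reads that match more than 1 gene, and such reads count for neither. The cDNA was made with the NuGEN RNA-Seq V2 kit, per the labels' protocol. The strand setting of the counting is not given in the sources used here, so reads from Kcnj3 and from Gm26794 over the shared bases cannot be told apart.

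**Figure D4:**
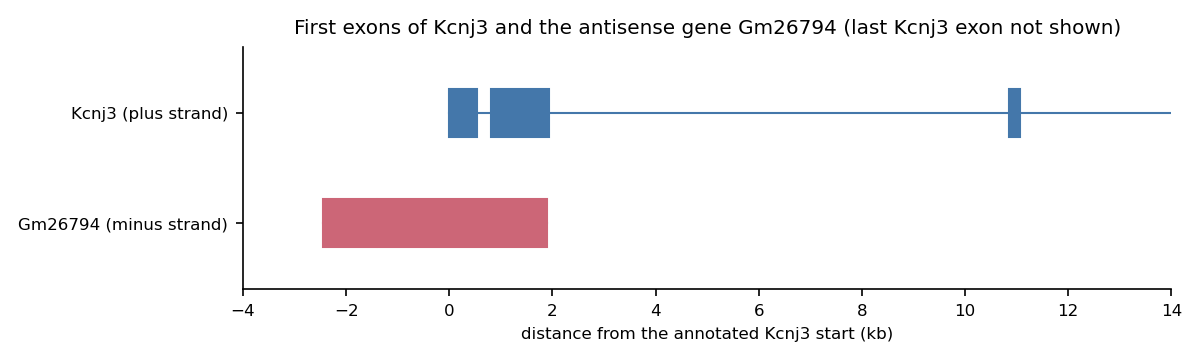
Exons (boxes) and introns (lines) of Kcnj3 and Gm26794, drawn by distance in kilobases from the annotated Kcnj3 start. The Gm26794 exons cover the first and second Kcnj3 exons almost completely and extend upstream of the Kcnj3 start.

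Gm26794 itself had 3 counts over the 4 controls and 470 over the 4 cKO libraries. Its counts were 1, 2, 0 and 0 in controls against 75, 129, 188 and 78 in cKO. The means were 0.052 CPM ± 0.069 and 5.93 CPM ± 3.37 (SD, n = 4 each), and its adjusted p was 0.0107 by edgeR. The call held in 7 of 8 fits that each left out 1 library, and without cKO S4 the adjusted p was 0.0618. It was also lost with limma-voom, at an adjusted p of 0.0603, and on FPKM, at 0.137 and 0.0559 for pseudocounts of 1 and 0.1. The authors' deposited table gave Gm26794 an adjusted p of 6.87e-13.

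**Figure D5:**
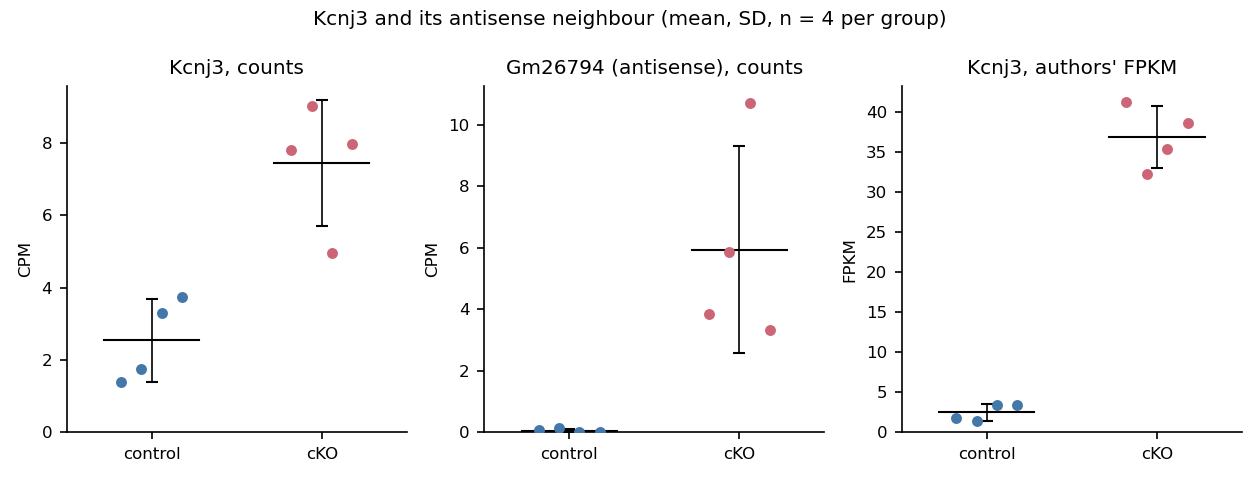
Kcnj3 and Gm26794 in CPM from the counts, and Kcnj3 in the authors' FPKM, with 1 point per library or column, a line at the mean and bars of 1 SD (n = 4 per group, linear axes from 0). In each panel all 4 cKO values lie above all 4 control values.

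Neurons also make Kir3.1. The 11 neuronal markers summed to 60.7 to 122 CPM in controls and 41.7 to 60.8 CPM in cKO, and 2 of the 11 had a higher mean in cKO. Of 10 tested by edgeR, 0 passed and 3 had an unadjusted p under 0.05, against 9.81% of all genes tested. DESeq2 called 2 of 11, Gad2 and Syp, both lower in cKO, against 2.49% of genes. No neuronal marker was at 0 in all libraries, and the part of these cells in the Kcnj3 values was not tested. Of the other Kir3 subunits, Kcnj9 (Kir3.3) had counts of 10, 21, 5 and 0 in controls against 13, 15, 0 and 4 in cKO. The groups overlapped. The log2 fold change of Kcnj9, −0.65, had a 95% interval of −3.31 to 2.02 and turned to 0.34 without control S2. Kcnj6 (Kir3.2), the main neuronal partner of Kir3.1, had 6 counts over the 4 controls and 2 over the 4 cKO libraries, too few to compare.

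The Kir2 genes encode the classical strong rectifiers. Kcnj2 (Kir2.1) had counts of 34, 170, 122 and 6 in controls against 42, 58, 0 and 26 in cKO. Control S2 and S6 stood high, while control S1 and S7 lay within the cKO range in CPM. The log2 fold change of Kcnj2 was −1.86 with a 95% interval of −4.18 to 0.47 and an adjusted p of 0.613 by edgeR. Kir2.1 is also made by endothelial cells and microglia. The 9 endothelial markers summed to 51.8 to 72.0 CPM in controls and 24.2 to 58.9 in cKO, and 1 of 9 had a higher mean in cKO. The 10 microglial markers summed to 27.5 to 48.1 and 27.8 to 66.8 CPM, and 7 of 10 had a higher mean in cKO. No marker in either list was at 0 in all libraries, and the part of these cells in the Kcnj2 values was not tested.

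Kcnj12 (Kir2.2) had counts of 19, 2, 3 and 0 in controls against 49, 21, 12 and 7 in cKO. Control S1 exceeded 3 of the 4 cKO libraries in CPM, so the groups overlapped, and the 95% interval of the log2 fold change, 1.55, ran from −0.91 to 4.00. Kcnj4 (Kir2.3) had 0 counts in all 8 libraries, which at a limit of 3 counts allows up to 0.120 to 0.216 CPM per library.

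The Kir6 genes encode the pore of ATP-sensitive potassium channels. Kcnj11 (Kir6.2) had counts of 26, 27, 3 and 0 in controls against 6, 5, 0 and 4 in cKO. Control S1 and S2 stood apart from the other 6 libraries. It was too low for the main test, and with every gene of at least 1 count kept its log2 fold change was −2.36 with an adjusted p of 0.581 by edgeR. Kcnj8 (Kir6.1), which marks pericytes in the nervous system, had 4 counts in control S6 and 0 in the other 7 libraries. Of 9 other mural markers 8 were detected, summing to 59.7 to 74.3 CPM in controls and 52.5 to 62.3 in cKO, and Des was at 0 in all libraries. Most of each sum came from Pdgfrb, at 19.9 to 45.8 CPM, and Cspg4, at 10.5 to 37.6 CPM. Cspg4 is also listed here as a marker of oligodendrocyte precursors. Other mural markers were low, such as Acta2, at no more than 1.46 CPM. The part of mural cells in the Kcnj8 counts was not tested.

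The sulfonylurea receptor genes Abcc9 and Abcc8 lie beside Kcnj8 and Kcnj11 on their chromosomes. Abcc9 had 35, 42, 38 and 49 counts in controls and 38, 39, 21 and 46 in cKO, means of 2.42 CPM ± 0.435 and 1.72 CPM ± 0.359 (SD, n = 4 each). Its CPM ranges did not overlap, but the log2 fold change of −0.49 had a 95% interval of −1.70 to 0.72. Abcc8 had 23 counts over the controls and 34 over the cKO libraries, 30 of them in cKO S4.

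Zero counts among the 7 members other than Kcnj10, Kcnj16 and Kcnj3 gathered in 2 libraries. In control S7 and in cKO S5, 6 of the 7 were at 0, against 2 or 3 in each of the other 6 libraries. These are also the libraries with the fewest genes detected, and 2.23% and 3.36% of all tested genes were at 0 there, against 0.054% to 0.698% elsewhere. The part of library make-up in the spread of these 7 members was not tested.

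Of the 5 remaining Kcnj genes, 2 could be tested, and 0 passed by edgeR or DESeq2, with 0 at an unadjusted p under 0.05 by either. Kcnj13 (Kir7.1), an epithelial channel, was at 1.94 CPM ± 1.97 in controls and 1.40 CPM ± 0.680 in cKO, and Kcnj14 (Kir2.4) at 1.68 CPM ± 1.16 and 0.631 CPM ± 0.530 (SD, n = 4 each). Of the exon bases of Kcnj13, 49.1% are shared with Gigyf2, so its counts are uncertain. Kcnj5 (Kir3.4), the cardiac partner of Kir3.1, had 14 counts over the controls and 9 over the cKO libraries, Kcnj15 (Kir4.2) had 5 and 8, and Kcnj1 (Kir1.1) had 0 in all 8.

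A list of Kir anchoring and trafficking partners, one of PIP2 turnover and one of G protein signalling were examined, and no tested gene of these lists passed. Over all genes tested, 9.81% by edgeR and 12.9% by DESeq2 had an unadjusted p under 0.05. Of 21 anchoring and trafficking partners, 20 were tested, 0 passed by edgeR or DESeq2 and 3 had an unadjusted p under 0.05 by edgeR and 5 by DESeq2. The most abundant were Dtna, at 527 CPM ± 83.7 in controls and 645 CPM ± 41.6 in cKO, and Dag1, at 477 CPM ± 58.2 and 639.96 CPM ± 115 (SD, n = 4 each), both of the dystrophin complex that holds Kir4.1 at endfeet. The median log2 fold change of the list was 0.0098, against −0.017 over all genes tested. PIP2 is the lipid that keeps Kir channels open. Of 8 genes of PIP2 turnover, 7 kinases that lead to it and the phosphatase Synj1 that removes it, 8 were tested, 0 passed by either tool and 0 had an unadjusted p under 0.05. Their median was 0.19, over genes of opposite action, and Pi4ka, a lipid kinase, was at 116 CPM ± 10.9 and 107 CPM ± 14.1, and Synj1 at 80.9 CPM ± 19.3 and 88.1 CPM ± 13.9 (SD, n = 4 each). Of 14 genes of G protein signalling to Kir3 channels, 12 of them subunits and Rgs4 and Rgs7 regulators, 14 were tested, 0 passed by either tool and 1 had an unadjusted p under 0.05 by each. Their median was −0.089, with Gnai2 at 216 CPM ± 29.0 and 238 CPM ± 39.5 and Gnb1 at 191 CPM ± 55.4 and 155 CPM ± 15.8 (SD, n = 4 each).

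The residual Kcnj10 signal in cKO was set beside markers of cells that also make Kir4.1. Oligodendrocyte precursor markers summed to 529 to 1486 CPM in controls and 606 to 718 CPM in cKO, and 1 of 7 had a higher mean in cKO. By edgeR 0 of the 7 passed, with 4 at an unadjusted p under 0.05, against 9.81% of all genes tested. By DESeq2 2 passed, Neu4 and Gpr17, both lower in cKO, against 2.49% of genes. For oligodendrocyte markers, whose sums are given above, edgeR passed 0 of 12, with 3 at an unadjusted p under 0.05. DESeq2 passed 1 of them, Mal, lower in cKO. The same shares over all genes apply here. No marker in either list was at 0 in all libraries, and the part of these cells in the residual Kcnj10 counts was not tested.

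The nearest tested protein-coding genes on each side of the members were examined for linked differences. Apart from members themselves these were 16 genes, of which 0 passed by edgeR, with 3 at an unadjusted p under 0.05 (Pigm, Galnt13 and Dyrk1a), and 1, Pigm, passed by DESeq2. The shares over all genes, given above, were 9.81% at that unadjusted threshold by edgeR and 2.49% called by DESeq2. Kcnj9 and Kcnj10 lie 11.9 kb apart on chromosome 1 and point away from each other, and the Kcnj9 groups overlapped while those of Kcnj10 did not. On the other side of Kcnj10, 2.46 kb away, Pigm, an enzyme of GPI anchor synthesis, was at 186 CPM ± 74.4 in controls and 374 CPM ± 36.4 in cKO (SD, n = 4 each), with an adjusted p of 0.102 by edgeR. In the fit without control S1 the adjusted p of Pigm by edgeR was 0.00887. Fits without any other library are not given here for the neighbours, so that value alone does not show a stable difference. Kcnj16 and Kcnj2 lie 38.2 kb apart on chromosome 11. Beside Kcnj3, Galnt13 was at 4.16 CPM ± 2.18 and 1.65 CPM ± 0.631 (SD, n = 4 each), lower where Kcnj3 was higher, with an adjusted p of 0.476 by edgeR.

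Genes most like Kcnj10 and Kcnj16 across the 8 libraries were found by the root mean square difference of mean-centred log2 CPM among 7607 genes of at least 10 CPM. For Kcnj10 they were Cpne6, Lrtm2 and Wnk2, at differences of 1.28, 1.66 and 1.75, where the median gene was at 2.89. Their log2 differences between cKO and control, −3.66, −2.76 and −2.34, follow from this choice, since Kcnj10 itself was far lower in cKO, and are given as a description. For Kcnj16 they were Mks1, Tchp and Fam213a, at differences of 0.13, 0.16 and 0.17, against a median of 0.49.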

How the data were processed

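The authors deposited raw counts per library for 39179 Ensembl identifiers, FPKM per library, and a comparison table. The submitters' processing notes name TopHat2 2.0.11, Bowtie2 2.2.3, HTSeq 0.6.1p1, DESeq2 1.14.1, Cuffnorm, Cufflinks 2.2.1 and GRCm38. The annotation release and strand setting are not given in the sources used here. Summary lines that name no gene held 56.4% to 61.7% of the reads in the deposited count files and were left out. Per the file headers, the comparison table holds each group's mean count after size-factor scaling (a signal), a log2 fold change with its standard error and statistic (scores), and p-values.

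Counts were tested with edgeR 4.0.16 (TMM, filterByExpr, quasi-likelihood, no covariate) and adjusted by Benjamini-Hochberg over 14757 genes, with a threshold of 0.05. The procedure was tested on simulated data. CPM use TMM-adjusted library sizes, and gene lengths and coordinates come from the GENCODE M21 annotation (GRCm38). Symbols matched 37607 identifiers. Alternatives were DESeq2 1.42.0, limma 3.58.1 (voom, and FPKM of at least 0.1 in 4 or more columns), other normalizations and filters, Xist level as a covariate because no label gives sex, and leaving out each library. In only 3 of 8 cases did an FPKM column best follow the counts of the library it is named for, over 13791 genes. Each column was compared only with libraries of its own group, so that check cannot test the group names. Kcnj10 FPKM was 272 to 548 in the columns named as control and 4.40 to 6.56 in those named as cKO. FPKM are used by group only. All members and remaining Kcnj genes were named whatever their values, with Abcc8, Abcc9, the nearest tested neighbours, the 3 genes most like Kcnj10 and Kcnj16, and list members past the threshold or otherwise the 2 most abundant. Gm26794, Aldh1l1, Aqp4 and the markers of other cells were named after their values were seen. The members and lists were chosen with earlier results of these data known. Python 3.11.15, R 4.3.3 and matplotlib 3.10.9 were used.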

Additional observations from a re-analysis of the deposited data

Results flagged for a closer look

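In 6 of 31 groups of 4 values examined, 1 library was far from the rest (Kcnj genes and others named with them). Chance gives this in about 1 in 20 groups of continuous values, but that rate does not hold for Kcnj8 and Kcnj5, where the other values are 0 and any single count stands apart. It is also uncertain for Kcnj12 and Abcc8, where the other libraries of the flagged group had at most 3 counts each. The flagged members were Kcnj8, at 0.220 CPM in control S6 and 0 in the other controls, and Kcnj12, at 1.20 CPM in control S1 and at most 0.165 CPM in the other controls. Among the other genes, Kcnj5 was at 0.769 CPM in control S6 and 0.385 CPM in cKO S8, and 0 in the remaining libraries. Kcnj13, which shares exon bases with Gigyf2, was at 4.89 CPM in control S6 and at most 1.08 CPM in the other controls. In control S6, where Kcnj8, Kcnj5 and Kcnj13 stood apart, 7 fibroblast markers summed to 617 CPM, against 124 to 248 CPM in the other controls, and 7 ependymal markers to 30.1 CPM, against 8.18 to 20.3 CPM. No marker of these lists was at 0 in all libraries. The mural markers summed to 62.3 CPM there, against 59.7 to 74.3 CPM, and the part of these cells in the counts was not tested. Abcc8 was at 1.36 CPM in cKO S4 and at most 0.153 CPM in the other cKO libraries.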

How the results depend on the processing

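Against 47 changed genes, the count was 87 when genes with any read were kept and 84 when 10 reads were required everywhere, 384 with DESeq2 and 28 with Xist level as a covariate. Leaving out 1 library each gave 4 to 45 genes, with 4 without cKO S4, 14 without control S2, 16 without control S6, 24 without cKO S5, 28 without cKO S8 and 30 without control S1. The count of changed members was 1 in all count settings by edgeR and limma-voom and 2 with DESeq2 and with FPKM at pseudocounts of 1 and 0.1, the last 2 added after seeing the data. Kcnj10 kept its direction and call in 17 of 17 settings, from −6.12 to −5.61. Kcnj3 kept its direction in 17 and passed in 3, DESeq2 and both FPKM fits, while over the 8 fits that left out a library its adjusted p was 0.212 to 0.532. Kcnj2 and Kcnj12 kept their direction in 16 of 16 settings without passing. Kcnj16 turned to 0.043 with library totals, 0.0046 without control S1 and 0.083 without cKO S8 (leaving out each library, −0.26 to 0.083), and Kcnj9 to 0.34 without control S2 (leaving out each library, −1.09 to 0.34); the cause was not tested.

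With the authors' FPKM means, 5 of 10 members kept their place in the control order, and 7 to 10 did when a control was left out. In cKO, FPKM means placed Kcnj3, at 36.9, between Kcnj16, at 59.1, and Kcnj10, at 5.83. The Kcnj10 to Kcnj16 ratio from FPKM was 6.29 in controls and 0.099 in cKO, and without 1 library it was 7.09 to 8.79 and 0.129 to 0.174. No paired analysis was possible because the groups share no replicate number. Low counts limit Kcnj6, Kcnj8, Kcnj9, Kcnj11 and Kcnj12.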
